A study of Mus musculus with 10 samples.

Results

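The 40 genes described here are genes of the cell division cycle, of 54532 genes measured in mouse spleen, and were chosen by name from 6 roles that run from the licensing of replication origins to the separation of chromosomes. The rule for their choice uses names and roles and no expression value, but the genes were chosen with earlier results of these data known. The spleens came from DUSP6 KO mice (allele Dusp6tm1Jmol, which the sample labels call DUSP6 Knockdown) and from C57BL/6J mice, the WT group, with 5 mice and 5 libraries in each group. DUSP6 is a phosphatase that removes the activating phosphates of the kinase ERK. All 10 mice, 8 to 12 weeks of age, had received 100 µL of serum from arthritic KRN x NOD F1 mice by intraperitoneal injection on days 0 and 2, which transfers arthritis (KRN serum-induced arthritis, KSIA), and the spleens were taken on day 9. Mice without serum were not analysed here, so each comparison is of KO and WT mice with arthritis serum. The deletion was present in every cell of the animal, both strains were purchased, and the sources used here do not say whether the groups were littermates. Serum went to mice of both sexes, and all 10 libraries were male by their Xist and Ddx3y values.

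The libraries held 14990474 to 19822673 reads, recovered from the deposited FPKM values (fragments per kilobase of gene length, scaled to the depth of the library), and a member of the set had between 227 and 28334 reads in a library. The depth that the FPKM values imply was 0.949 (DUSP6 KO 73) to 1.12 (DUSP6 KO 21) times the recovered reads. At an equal share of recovered reads, FPKM is thus higher in DUSP6 KO 73 than in DUSP6 KO 21. Dusp6 itself ranged over 0.308-0.624 FPKM in the KO libraries and over 16.6-24.0 FPKM in the WT libraries, so the labels matched the targeted gene. WT 65 and WT 67 also held RNA of the exocrine pancreas: the chymotrypsinogen gene Ctrb1 was at 59.3 FPKM in WT 65, at 5928 FPKM in WT 67 and at most at 0.0660 FPKM in the other libraries. The summed level of 8 pancreas genes ran from 9.55 to 26.2 FPKM over the KO libraries and from 13.4 to 14443.5 FPKM over the WT libraries. Group differences of the cell cycle genes are therefore also given without these libraries. Library values of a gene are listed in the order 26, 21, 73, 01 and 03 for DUSP6 KO and 65, 67, 73, 77 and 83 for WT.

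A dividing cell first loads the MCM helicase onto replication origins, then fires these origins under the control of E2F transcription factors and cyclin E, copies its DNA, and enters mitosis when cyclin B and the kinase Cdk1 become active. Genes of the first steps are typically switched on by E2F before S phase, and genes of mitosis later, through promoters that often carry the cell cycle homology region (CHR) and CCAAT boxes. In the mouse the spleen is also a blood-forming organ, in which dividing erythroid precursors lie beside lymphocytes that divide in immune responses.

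Promoters were read from RefSeq (GRCm38.p6), from 250 bases before to 50 bases after the start site, and 33 of the 40 genes had an entry. Any of the E2F-type motifs TTTGGCGC, TTTCGCGC, TTTCCCGC and TTTGCCGC, on either strand, stood in 8 of the 33 (24.2%) and in 2.61% of 27025 promoters of all genes. The E2F-type matches were in 7 of the 16 replication and G1/S genes with an entry (43.8%) and in 1 of the 17 mitosis genes. Of the 16, the matches were in 6 of the 8 licensing and helicase genes and 1 of the 3 G1/S genes. They were in 0 of the 5 genes of nucleotide supply and DNA synthesis. The CHR motif TTTGAA, on either strand, stood in 12 of the 17 mitosis genes (70.6%), in 2 of the 16 replication and G1/S genes (12.5%) and in 20.2% of all promoters. CCAAT, on either strand, stood in 25 of the 33 (75.8%) and in 41.1% of all promoters. The promoters of Mcm5, Mcm6, Cdk1 and Mki67 are printed in the direction of transcription because they show both kinds, with E2F-type, CHR and CCAAT matches in capitals, and adjoining capitals in Mcm5 and Mcm6 are overlapping matches of the E2F-type set. Mcm5 lies at chr8:75109259-75109558 (plus strand), Mcm6 at chr1:128359656-128359955, Cdk1 at chr10:69352863-69353162 and Mki67 at chr7:135716330-135716629 (all minus strand). Mcm5 and Mcm6 hold E2F-type and CCAAT matches, Mki67 CHR and CCAAT matches, and Cdk1 all 3 kinds.
Mcm5: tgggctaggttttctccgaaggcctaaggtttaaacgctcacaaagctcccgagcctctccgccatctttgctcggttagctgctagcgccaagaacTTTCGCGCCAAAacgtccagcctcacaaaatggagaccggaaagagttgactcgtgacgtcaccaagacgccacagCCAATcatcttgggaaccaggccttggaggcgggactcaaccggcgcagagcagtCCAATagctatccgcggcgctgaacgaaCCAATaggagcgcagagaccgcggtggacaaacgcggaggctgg
Mcm6: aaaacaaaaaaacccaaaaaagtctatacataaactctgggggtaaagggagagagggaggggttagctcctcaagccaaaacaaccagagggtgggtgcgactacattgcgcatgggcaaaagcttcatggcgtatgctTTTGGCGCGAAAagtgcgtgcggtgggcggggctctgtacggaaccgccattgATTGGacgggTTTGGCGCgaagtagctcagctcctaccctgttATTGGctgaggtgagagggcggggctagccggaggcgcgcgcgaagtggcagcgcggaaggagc
Cdk1: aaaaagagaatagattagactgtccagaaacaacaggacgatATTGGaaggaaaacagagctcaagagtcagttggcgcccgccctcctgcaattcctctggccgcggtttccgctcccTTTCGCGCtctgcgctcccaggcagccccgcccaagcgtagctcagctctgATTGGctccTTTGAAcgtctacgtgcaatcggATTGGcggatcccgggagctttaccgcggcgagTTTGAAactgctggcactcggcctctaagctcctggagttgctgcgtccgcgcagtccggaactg
Mki67: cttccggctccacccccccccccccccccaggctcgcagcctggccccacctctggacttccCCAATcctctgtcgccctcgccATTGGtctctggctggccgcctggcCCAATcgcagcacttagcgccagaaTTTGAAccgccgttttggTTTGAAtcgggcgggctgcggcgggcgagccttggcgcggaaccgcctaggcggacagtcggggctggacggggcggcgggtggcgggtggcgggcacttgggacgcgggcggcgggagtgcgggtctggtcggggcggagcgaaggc
A match describes these letters only and does not show that a factor binds there.

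The 40 genes moved up and down together from spleen to spleen, within both groups. Every one of them was highest in DUSP6 KO 73, and WT 77 was second for 38 of them and DUSP6 KO 01 for the other 2. WT 67 was lowest for 29 and DUSP6 KO 21 for 11, and these libraries were the lowest pair for all 40. The level of a gene differed 2.53-fold (Cdt1) to 7.97-fold (Cenpf) between its lowest and highest library, with a median of 4.79-fold. The SD of log2(FPKM + 0.1) over the 10 libraries had a median of 0.72 for the 40 genes and 0.36 for the 21296 genes tested. Of the sum of squares of a gene's log2 values, 88.9% to 99.95% (median 97.6%) lay within the groups rather than between them. Over the 780 pairs of genes, Pearson's r across the 10 libraries was 0.854 to 0.998 with a median of 0.976, and 0.982 with the group means subtracted. These points share library, scaling and cell composition, and r is given as a description. In bulk spleen, fewer dividing cells and less RNA of these genes per cell cannot be told apart.

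**Figure D1:**
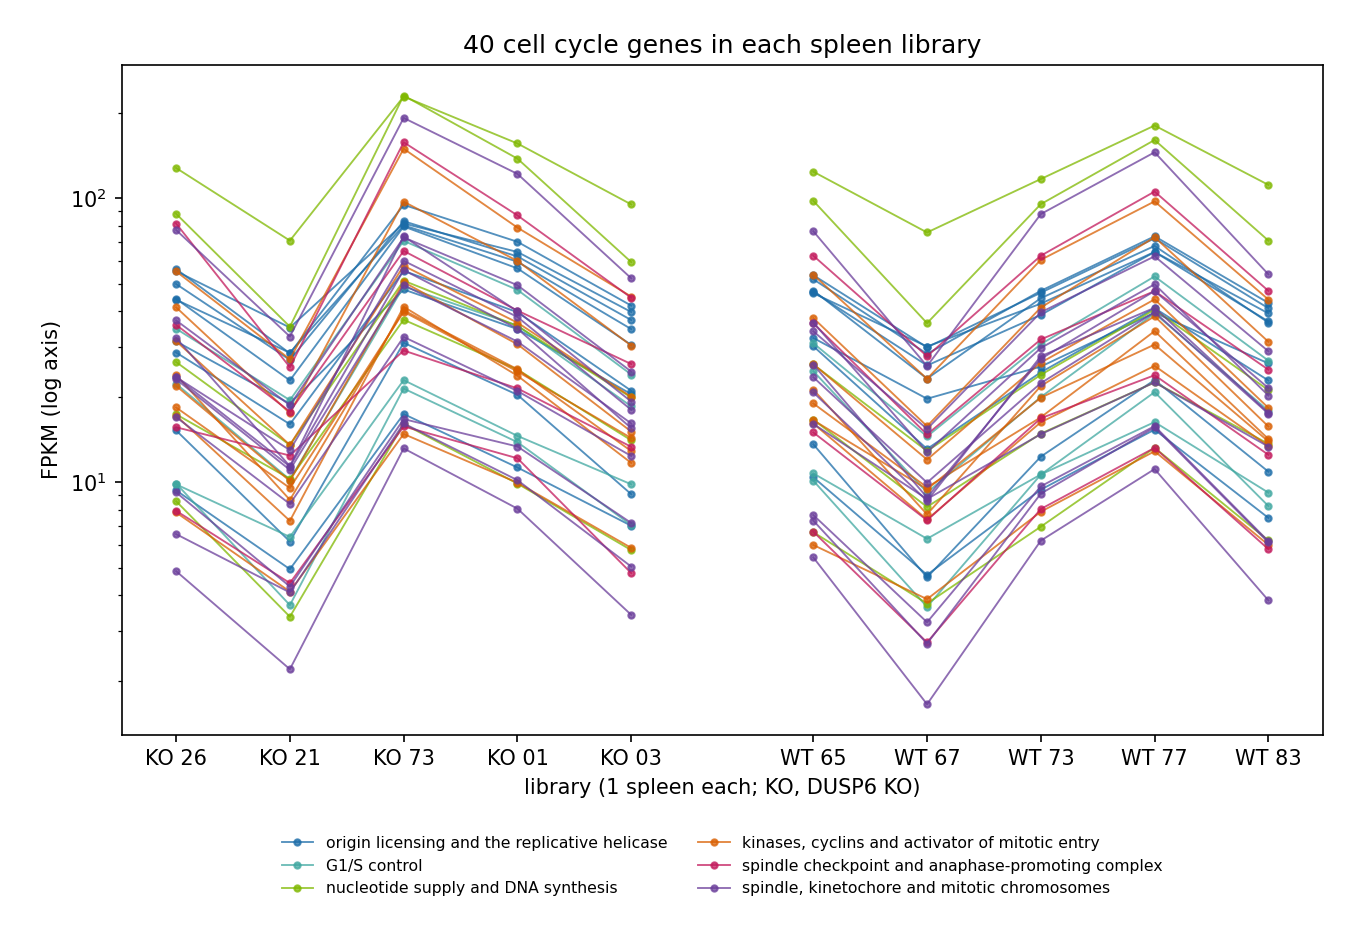
FPKM (log axis) of the 40 cell cycle genes in each of the 10 spleen libraries, 1 line per gene, coloured by role, with lines drawn only to join the points of a gene. All 40 lines peak at DUSP6 KO 73 and have their low points at DUSP6 KO 21 and WT 67, and the ranges of the groups overlap for every gene.

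Mki67, the gene of the proliferation marker Ki-67, lies on chromosome 7 (135689784 to 135716361, GRCm38, identifier ENSMUSG00000031004). It was at 77.4, 32.6, 192, 122 and 52.3 FPKM in DUSP6 KO, and at 76.7, 25.7, 88.1, 145 and 54.1 FPKM in WT. The highest and the third highest value were DUSP6 KO and the second WT, and the ranges overlapped over most of their length. The group means were 95.3 ± 63.6 and 78.0 ± 44.6 FPKM (SD, n = 5 each). The log2 difference, DUSP6 KO minus WT, was 0.24 (SE 0.53, 95% interval -0.94 to 1.41, limma adjusted p = 0.99), so the difference was smaller than the spread between mice.

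The first 9 members license origins or form the replicative helicase. Cdc6 and Cdt1 load the ring of Mcm2 to Mcm7 onto DNA, and Cdc45 activates it. Mcm5 (chromosome 8, 75109569 to 75128439, ENSMUSG00000005410) was at 49.97, 27.0, 83.2, 62.5 and 37.3 FPKM in DUSP6 KO, and at 47.4, 23.2, 44.5, 68.1 and 36.5 FPKM in WT. The order of the libraries was nearly that of Mki67, over a narrower range (3.59-fold against 7.49-fold). The means of Mcm5 were 52.0 ± 21.9 and 43.9 ± 16.4 FPKM, and the log2 difference was 0.22 (SE 0.33, limma adjusted p = 0.99). Mcm3 had the lowest unadjusted p of the 40 genes. It was at 55.4, 35.1, 81.6, 64.8 and 39.8 FPKM in DUSP6 KO and at 46.4, 30.1, 42.6, 64.8 and 39.4 FPKM in WT, with a log2 difference of 0.29 (SE 0.25, limma adjusted p = 0.98, two-sided exact permutation p = 0.34). Mcm2 was at 28.7, 16.0, 55.6, 39.7 and 21.02 FPKM in DUSP6 KO and at 30.2, 13.1, 24.4, 41.1 and 22.9 FPKM in WT, a log2 difference of 0.25 (SE 0.37). Both showed the same high and low libraries. The helicase genes varied least of the 6 roles: the median SD of the 9 genes was 0.58, with Cdt1 lowest at 0.45 and Cdc6 highest at 0.84. Of the 9, 8 had a positive log2 difference (median 0.20), and Mcm6 a negative one.

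The step from G1 to S phase is the role of 4 members: E2f1, the cyclin E genes Ccne1 and Ccne2, and Uhrf1, whose protein brings the maintenance DNA methyltransferase to new DNA. Uhrf1 was at 34.8, 19.5, 70.9, 47.6 and 24.0 FPKM in DUSP6 KO and at 30.9, 14.5, 30.7, 53.1 and 26.8 FPKM in WT. Its log2 difference was 0.30 (SE 0.39, limma adjusted p = 0.99), and the highest WT value lay above 4 of the 5 DUSP6 KO values. E2f1 ranged from 6.33 to 22.9 FPKM over the libraries, Ccne1 from 9.21 to 49.0 and Ccne2 from 3.64 to 21.4 FPKM.

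A further 5 members supply nucleotides or act at the replication fork. Pcna, the sliding clamp of DNA polymerases, had the highest level of the 40 genes per gene length, with 128, 71.0, 229, 156 and 95.3 FPKM in DUSP6 KO and 124, 75.9, 117, 181 and 112 FPKM in WT. Rrm2, the regulated subunit of ribonucleotide reductase, followed with 88.3, 35.3, 230.5, 138 and 59.7 FPKM in DUSP6 KO and 98.1, 36.4, 95.5, 161 and 71.1 FPKM in WT. Rrm2 differed 6.52-fold between libraries, and its larger subunit gene Rrm1 3.98-fold. Tk1, thymidine kinase of the salvage pathway, had the largest log2 difference of the 40 genes. It was at 17.4, 10.3, 37.4, 25.0 and 14.1 FPKM in DUSP6 KO and at 16.6, 8.19, 14.8, 22.5 and 13.7 FPKM in WT, and its means of 20.8 ± 10.7 and 15.2 ± 5.17 FPKM gave a log2 difference of 0.38 (SE 0.35, limma adjusted p = 0.98, two-sided exact permutation p = 0.37). Without DUSP6 KO 73 the log2 difference of Tk1 was 0.13. Tyms, thymidylate synthase, was among the 3 lowest genes, at 8.58, 3.36, 16.1, 9.90 and 5.77 FPKM in DUSP6 KO and 6.68, 3.74, 6.98, 13.2 and 6.24 FPKM in WT, and again the ranges overlapped.

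Entry into mitosis is driven by 8 members: the cyclins Ccna2, Ccnb1 and Ccnb2, their kinase Cdk1, the kinases Plk1, Aurka and Aurkb, and the transcription factor Foxm1. All 8 had a positive log2 difference, from 0.17 to 0.28 (median 0.23), each with an SE above it. Plk1, which acts in spindle assembly and mitotic exit, was at 31.4, 13.5, 57.9, 36.5 and 20.01 FPKM in DUSP6 KO and at 26.1, 12.03, 26.4, 44.1 and 18.3 FPKM in WT. Its log2 difference was 0.28 (SE 0.42, limma adjusted p = 0.99). Foxm1 was at 7.83, 4.12, 14.8, 9.97 and 5.88 FPKM in DUSP6 KO and at 6.02, 3.88, 7.88, 12.9 and 6.02 FPKM in WT. The 3 cyclin genes followed the other 39 members with r of 0.993 to 0.998, where the highest r of all 40 was 0.999 (Tpx2) and the lowest 0.955 (Bub1b).

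A set of 4 members acts in the spindle checkpoint or in the ubiquitin system that it holds back: Bub1 and Bub1b, the activator Cdc20 and the ubiquitin-conjugating enzyme Ube2c. Their log2 differences were 0.22 to 0.31. Bub1b was at 15.6, 12.4, 29.1, 21.4 and 13.3 FPKM in DUSP6 KO and at 15.0, 7.35, 16.8, 23.8 and 12.5 FPKM in WT, with a log2 difference of 0.31 (SE 0.32, limma adjusted p = 0.98, two-sided exact permutation p = 0.45). It was less low in DUSP6 KO 21 than in WT 67, and without WT 67 its log2 difference was 0.08.

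The 10 members of the spindle, kinetochore and mitotic chromosomes (Kif11, Kif20a, Tpx2, Nusap1, Birc5, Cenpa, Cenpe, Cenpf, Top2a and Mki67) varied most, with a median SD of 0.82. Cenpf, of the outer kinetochore, had both the lowest mean level and the widest range of the 40 genes, with 4.87, 2.20, 13.2, 8.08 and 3.41 FPKM in DUSP6 KO and 5.44, 1.65, 6.23, 11.1 and 3.84 FPKM in WT. Its log2 difference was 0.13 (SE 0.55). The 22 mitosis genes had a median SD of 0.77 and the 18 replication and G1/S genes one of 0.62, so from the low to the high spleens the mitosis genes spanned a median of 5.72-fold and the replication genes 3.83-fold.

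No cell cycle gene passed the test between DUSP6 KO and WT. In limma, 0 of the 40 had an adjusted p of 0.05 or less, where 15 of the 21296 genes tested did (0.0704%), and 0 had an unadjusted p under 0.05, where 5.66% of all genes did. The limma voom test on recovered reads also called 0 of the 40. The groups overlapped for all 40 genes, and did not for 1.11% of all genes. The log2 difference was above 0 for 39 of the 40, against 49.0% of all genes, with a median of 0.20 and a range of -0.13 to 0.38, while the median over all genes was -0.005. Because the 40 genes move as one, this count is not 40 separate observations. The median SE was 0.42, wider than any of the 40 differences. Against their own SE, Mcm3 (0.29, SE 0.25) and Tk1 (0.38, SE 0.35) were larger and the other differences smaller. The direction hung on single libraries: the median was -0.07 without DUSP6 KO 73 (10 genes above 0) and -0.03 without WT 67 (11 above 0), but 0.45 without DUSP6 KO 21 and 0.42 without WT 77. Without the libraries with pancreas RNA, WT 65 and WT 67, it was -0.09 with 11 above 0. The single genes moved with the same libraries. Leaving out each library in turn, the log2 difference ranged from 0.012 to 0.43 for Mcm5, from 0.13 to 0.43 for Mcm3, from 0.015 to 0.46 for Mcm2, from 0.045 to 0.52 for Uhrf1, from 0.13 to 0.60 for Tk1, from 0.027 to 0.55 for Plk1 and from 0.075 to 0.50 for Bub1b. Each of these low ends came without DUSP6 KO 73 or without WT 67, and each high end without DUSP6 KO 21 or without WT 77. Without WT 65 and WT 67 the values were 0.0070 for Mcm5, 0.15 for Mcm3, 0.042 for Mcm2, 0.0033 for Uhrf1, 0.18 for Tk1, 0.027 for Plk1 and 0.028 for Bub1b, and Mki67 was at -0.16.

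**Figure D2:**
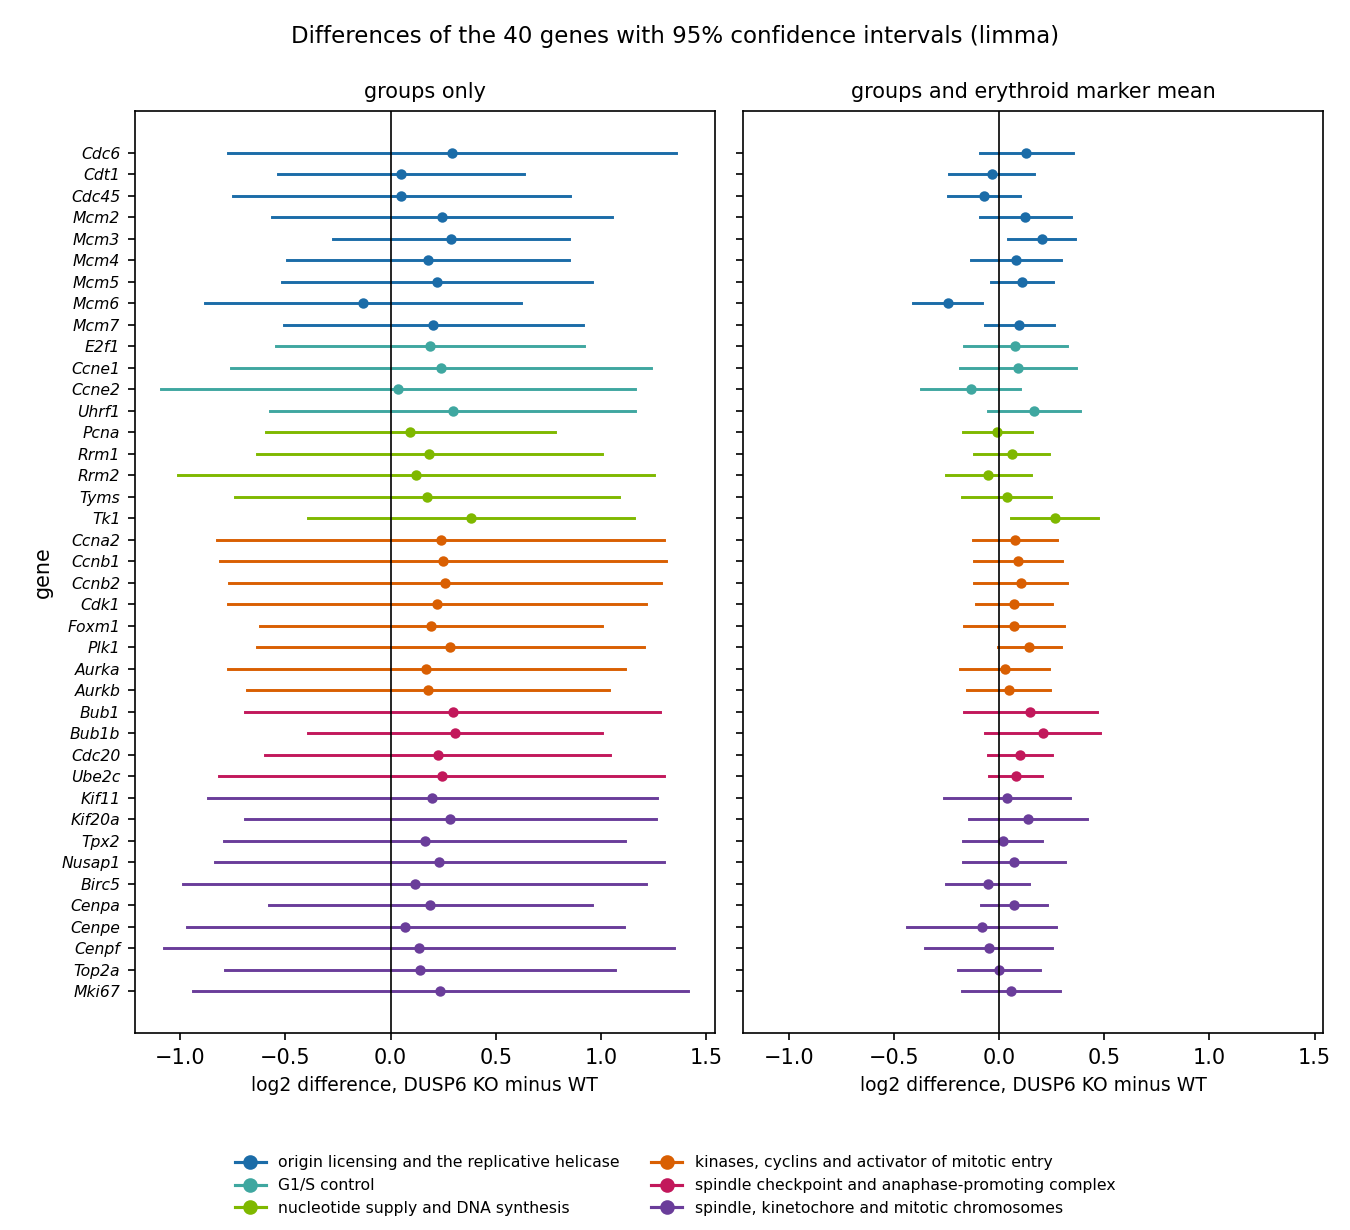
Log2 difference, DUSP6 KO minus WT, of each of the 40 genes with its 95% confidence interval from limma, without (left) and with (right) the mean of 21 erythroid genes as a term, coloured by role. On the left every interval spans 0, and on the right the intervals are narrower and those of Mcm3, Tk1 and Mcm6 do not reach 0, though no adjusted p passed 0.05.

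Mcm6, another subunit of the helicase, stood apart from its partners. It is described in full because of values seen in the analysis, not by the rule for named genes, so no test is given for the comparison with the other subunits. Mcm6 (chromosome 1, 128331590 to 128359664, ENSMUSG00000026355) was at 44.3, 22.9, 79.7, 56.7 and 30.5 FPKM in DUSP6 KO and at 52.0, 28.4, 47.3, 73.6 and 42.9 FPKM in WT. On its own it overlapped between groups, with a log2 difference of -0.13 (SE 0.34, limma adjusted p = 0.99). Relative to the mean log2 value of Mcm2, Mcm3, Mcm4, Mcm5 and Mcm7 in the same library, Mcm6 was at -0.04, -0.20, 0.03, -0.04 and -0.16 in DUSP6 KO and at 0.23, 0.27, 0.30, 0.27 and 0.31 in WT. All 5 WT values were above all 5 DUSP6 KO values, with means of 0.28 ± 0.03 and -0.08 ± 0.09 (SD, n = 5). The share of all genes without overlap on this measure was not determined. For each of the other 5 subunits, taken against its partners in the same way, the groups overlapped. Relative to the mean of the other 39 cell cycle genes, Mcm6 reached 0.70 to 0.947 over the KO libraries and 0.950 to 1.44 over the WT libraries on the log2 scale, so the groups did not overlap but nearly met. It was the only one of the 40 without overlap on this measure, where 0.301% of all genes did not overlap relative to the mean of the 40. Subtracting the mean takes common variation out of a member but adds it to a gene that does not follow the 40. The median r of the other tested genes with that mean was -0.121, so 0.301% is not a like comparison for a member. Mcm6 lies 0.477 Mb from Map3k19, a gene on the same chromosome at 0.0378-0.1398 FPKM in the KO libraries and 1.01-2.16 FPKM in the WT libraries (log2 difference -3.25, limma adjusted p = 0.000311). Whether the position has a part in the Mcm6 values was not tested.

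**Figure D3:**
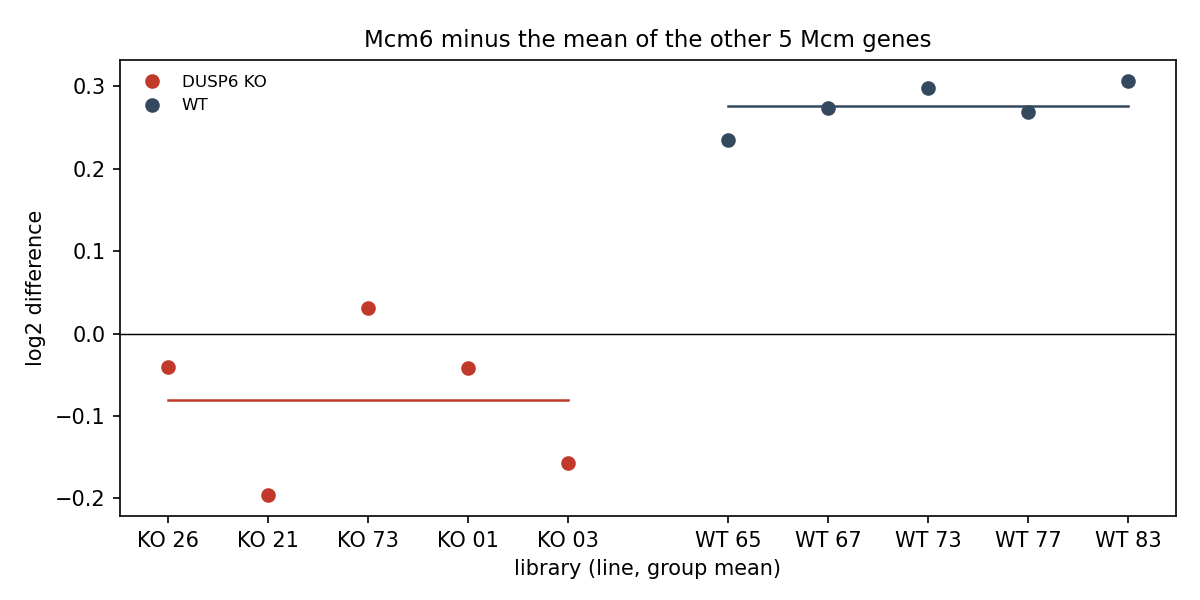
Log2 level of Mcm6 minus the mean log2 level of the other 5 Mcm genes in each library, with a line at each group mean. The 5 WT libraries lie between 0.23 and 0.31 and the 5 DUSP6 KO libraries between -0.20 and 0.03. Mcm6 was picked after its values were seen, and the share of all genes without overlap on this measure was not determined.

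The cell cycle genes varied with genes of erythroid precursors. The erythroid list held 21 measured genes, among them Klf1, Gata1 and Epor, the receptor of erythropoietin. None was at 0 in any library. Their mean log2 value was 7.75, 5.89, 8.90, 7.88 and 6.79 in DUSP6 KO and 7.47, 5.92, 7.61, 8.27 and 6.98 in WT, with DUSP6 KO 73 again highest and DUSP6 KO 21 and WT 67 again lowest. Their summed level was 20691 to 108725 FPKM in DUSP6 KO and 24772 to 52283 FPKM in WT. The group means of the list did not differ beyond the spread (two-sided exact permutation test, p = 0.77, n = 5 each). Over the 40 genes, r with the erythroid mean across the 10 libraries was 0.921 to 0.995 with a median of 0.9802, and the median over all genes tested was -0.128.

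Mki67 and Mcm5 were set against the means of 10 marker lists, which makes 20 relations, over 10 libraries and with Benjamini-Hochberg adjustment over the 20. The lists were chosen with earlier results of these data known. With the erythroid mean, Mki67 had r = 0.984 and rho = 0.976, and Mcm5 r = 0.983 and rho = 0.964 (permutation p of r = 2e-05 for both, adjusted p = 0.0002, where 1e-05 is the smallest the permutations can give). Without the 2 libraries farthest from the median, r was 0.972 for Mki67 and 0.970 for Mcm5 (permutation test, adjusted p = 0.001 and 0.0014). With the group means subtracted, r was 0.984 and 0.987. With B cell genes (Cd79a, Pax5 and 6 more) the relation ran the other way, with r = -0.934 and rho = -0.988 for Mki67 and r = -0.932 and rho = -0.976 for Mcm5 (permutation test, adjusted p = 0.0004 for r of both). Without the 2 farthest libraries r was -0.938 and -0.933. FPKM values are relative within a library, so a larger share of RNA from some cells lowers the values of genes of other cells. With T cell genes r was -0.791 and -0.761 (permutation test, adjusted p = 0.026 and 0.036). For these genes rho was -0.818 and -0.697 (permutation test, adjusted p = 0.024 and 0.088). With the group means subtracted, r was -0.809 and -0.792 (permutation test, adjusted p = 0.016 and 0.021). Without the 2 farthest libraries r was -0.531 and -0.443 (permutation test, adjusted p = 0.29 and 0.39), so it was weaker and did not pass over the remaining 8. With genes of germinal centre B cells (Bcl6, S1pr2 and 6 more), the B cells that divide in immune responses, r was 0.049 for Mki67 and -0.035 for Mcm5 (permutation test, adjusted p = 0.92 for both). With plasma cell, macrophage, megakaryocyte, stem and progenitor cell and pancreas genes, no adjusted p was 0.05 or less over the 10 libraries as they are. With the group means subtracted, Mcm5 had r of -0.721 with the stem and progenitor cell genes (permutation test, adjusted p = 0.036). Neutrophil progenitor genes (Elane, Mpo, Prtn3 and 5 more) had r of 0.534 and 0.486 (permutation test, adjusted p = 0.23 and 0.24), which rose to 0.749 and 0.743 with the group means subtracted (permutation test, adjusted p = 0.031 for both). All 8 neutrophil progenitor genes had a log2 difference below 0 between the groups (median -1.04), where 49.0% of all genes were above 0. Of these 8, 3 had an unadjusted limma p under 0.05, against 5.66% of all genes, and 0 were called (lowest limma adjusted p = 0.79). They share libraries and are not 8 separate observations. The list mean had a two-sided exact permutation p of 0.079. Dividing cells of other kinds were not told apart further, since the libraries are of whole spleen.

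**Figure D4:**
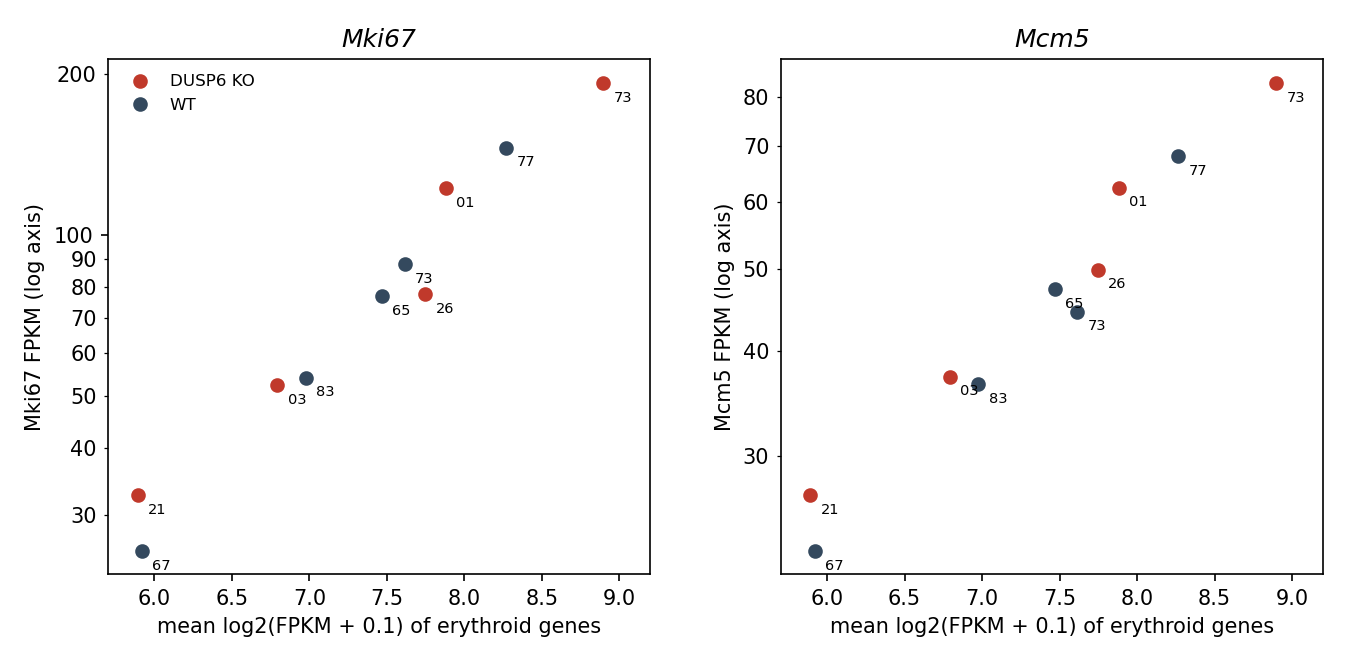
Mki67 (left) and Mcm5 (right) in FPKM (log axis) against the mean log2(FPKM + 0.1) of 21 erythroid genes, 1 point per library, coloured by group and marked with the replicate number. Points of both groups lie along 1 line, from DUSP6 KO 21 and WT 67 at 5.89 and 5.92 on the horizontal axis to DUSP6 KO 73 at 8.90.

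With the erythroid mean as a term in the limma fit, the SE was smaller for all 40 genes, with a median of 0.09 in place of 0.42. The log2 difference came nearer to 0 for 36 genes and moved farther from 0 for 4 (Cdc45, Mcm6, Ccne2 and Cenpe), and the median log2 difference was 0.07, with 30 genes above 0 and 10 below. In this fit 0 of the 40 passed an adjusted p of 0.05 (0.136% of all genes did), and 3 had an unadjusted p under 0.05, against 8.33% of all genes. These 3 were Mcm6 at -0.24 (SE 0.07, limma adjusted p = 0.36), Tk1 at 0.26 (SE 0.09, limma adjusted p = 0.46) and Mcm3 at 0.20 (SE 0.07, limma adjusted p = 0.46). Mki67 was at 0.06 (SE 0.11) and Mcm5 at 0.11 (SE 0.07), within the spread. The erythroid genes were measured in the same libraries, so the fit compares the groups at an equal erythroid level and not at an equal number of dividing cells.

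The other genes of the cycle were taken from 6 lists with 149 genes. In limma 0 of the 149 had an adjusted p of 0.05 or less and 2 an unadjusted p under 0.05 (0.0704% and 5.66% of all genes), with 132 above 0 and 17 below. The 92 other genes of DNA replication and mitosis behaved as the 40 did: 88 were above 0 with a median log2 difference of 0.16, their median SD was 0.63, and 89 of them had r over 0.9 with the mean of the 40. Pttg1, the gene of securin, which restrains chromosome separation, had the lowest p of these 92 and departed from the common order. It was at 21.9, 13.1, 44.4, 23.9 and 13.4 FPKM in DUSP6 KO and at 15.7, 14.3, 17.2, 14.1 and 12.7 FPKM in WT, and in WT it lay between 12.7 and 17.2 FPKM while Mki67 lay between 25.7 and 145 FPKM. Its log2 difference was 0.51 (SE 0.29, limma adjusted p = 0.94). Clspn, of the replication checkpoint, followed the 40 genes (r = 0.978), with a log2 difference of 0.46 (SE 0.45, limma adjusted p = 0.98).

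The lists of regulators upstream of the cycle had a lower median SD than the 40 genes (0.72). Single genes of the E2F and RB, MYC and CDK inhibitor lists still reached an SD of 0.86, 0.80 and 0.73. The 6 D cyclins, their kinases and Cdk2 had a median SD of 0.26. Ccnd1, cyclin D1, was at 9.10, 15.7, 9.12, 11.9 and 10.9 FPKM in DUSP6 KO and at 14.8, 14.4, 13.1, 11.6 and 13.2 FPKM in WT, lower where the 40 genes were higher (r = -0.660), with a log2 difference of -0.27 (SE 0.15, limma adjusted p = 0.94). Cdk4, its kinase, had a log2 difference of 0.12 (SE 0.11, limma adjusted p = 0.98). Among 16 genes of the E2F and RB families the 2 lowest p belonged to E2f3 (log2 difference 0.17, SE 0.18) and Lin37 (log2 difference 0.08, SE 0.09), both with a limma adjusted p of 0.99. The median SD of these 16 was 0.34.

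The 14 CDK inhibitors and genes of the p53 axis had 8 genes above 0 and 6 below, with a median log2 difference of 0.01. Cdkn1a, the CDK inhibitor p21, was at 3.45, 3.26, 2.997, 3.04 and 4.05 FPKM in DUSP6 KO and at 2.60, 2.45, 2.19, 2.15 and 3.20 FPKM in WT. All WT values but 1 lay below every DUSP6 KO value, and WT 83 lay among them. Its log2 difference of 0.41 (SE 0.14) did not pass adjustment over all genes (limma unadjusted p = 0.0122, adjusted p = 0.71), and it did not follow the 40 genes (r = -0.192). Trp53, the gene of p53, had a log2 difference of 0.14 (SE 0.08, limma adjusted p = 0.94). Of 14 subunits and regulators of the anaphase-promoting complex, Anapc2 had an unadjusted p under 0.05 and was the 1 gene of the 149 whose groups did not overlap (1.11% of all genes), at 29.8, 29.1, 29.1, 28.1 and 28.8 FPKM in DUSP6 KO and 25.8, 27.2, 24.5, 27.7 and 24.9 FPKM in WT (log2 difference 0.15, SE 0.06, limma adjusted p = 0.79). Anapc1 was at 0.12 (SE 0.09, limma adjusted p = 0.97). Of 7 genes of MYC and its partners, Mxd4 was at -0.10 (SE 0.13) and Myc at 0.06 (SE 0.09), both with a limma adjusted p of 0.99.

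**Figure D5:**
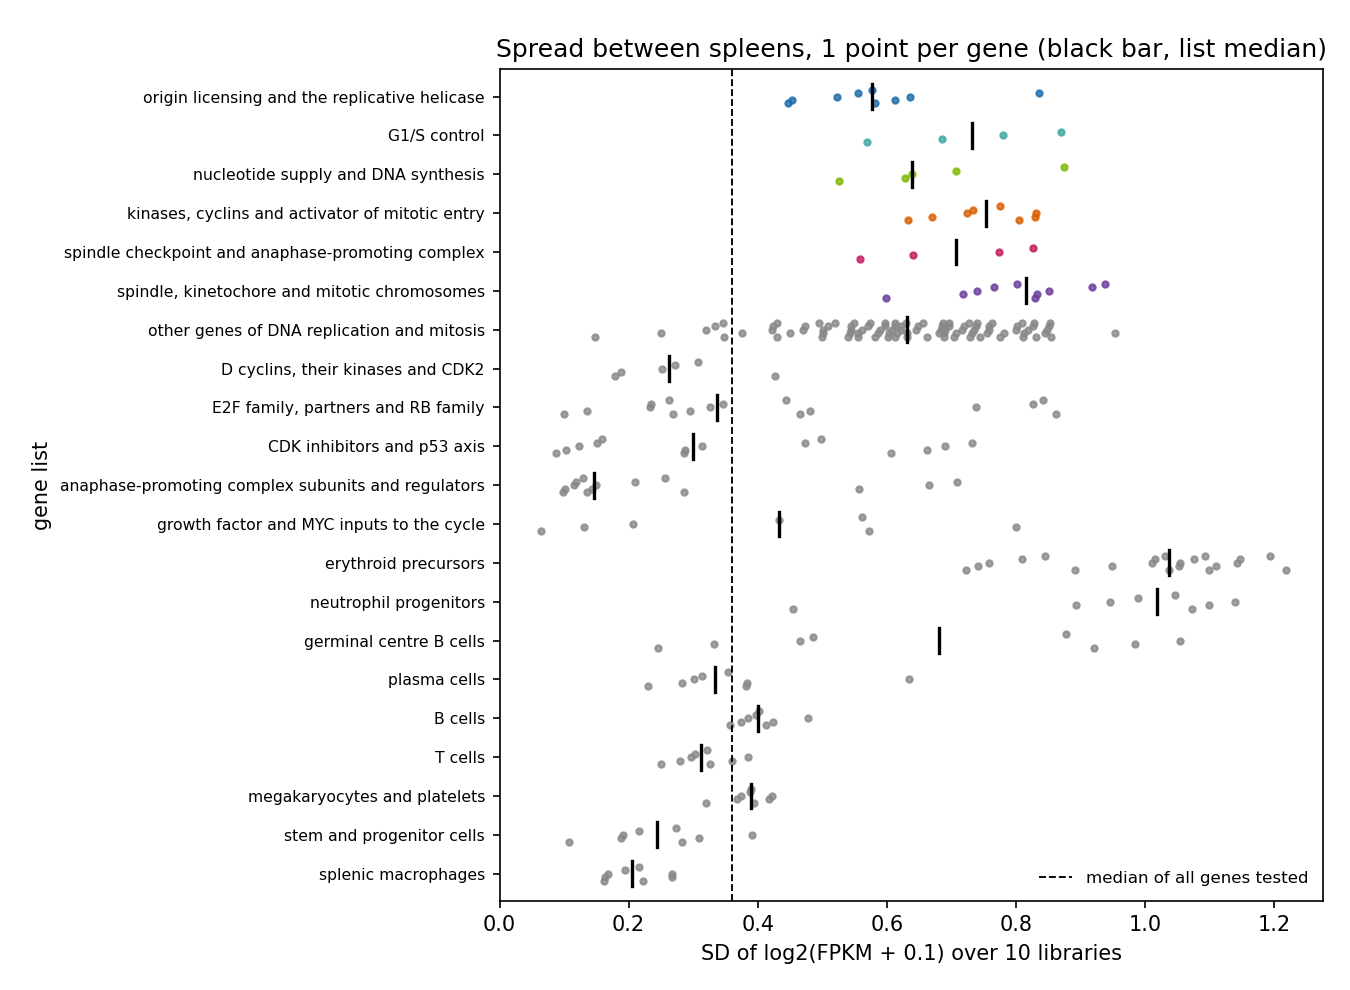
SD of log2(FPKM + 0.1) over the 10 libraries for each gene (points) of the 6 roles of the 40 genes, the 6 other cell cycle lists and 9 marker lists, with the list median as a bar and the median of all genes tested as a dashed line (0.36). All 40 points of the 6 roles lie to the right of the dashed line, from 0.45 to 0.94. Of the lists shown, erythroid precursors have the largest median (1.04), close to that of neutrophil progenitors (1.02). The exocrine pancreas list, with a median SD of 4.51, is not shown.

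Outside the 40, 1167 of 21256 tested genes (5.49%) had r over 0.9 with their mean and 507 had r under -0.9. The 20 genes most like the 40, by r over the 10 libraries, were Abcb10, Txnrd2, Sox6, Kifc1, Tuba4a, Tspan33, Aqp1, Cdca8, E2f8, Spag5, Dtl, Spire1, Tal1, Lmna, Mfsd2b, Fbxo5, Kif4, Brpf3, Tom1l1 and Kif18b, with r of 0.995 to 0.999. Of these, 8 are in the other cell cycle lists and Tal1, a transcription factor of erythroid cells, in the erythroid list. Among the rest, Abcb10 is a mitochondrial transporter with a role in haem synthesis and Aqp1 the water channel of red cells. Of the 100 genes with the highest r (0.989 or more), 21 were from the list of 92 other replication and mitosis genes. A further 7 were from the list of 21 erythroid genes. With the group means subtracted, these counts were 18 and 7. Of the 21 erythroid genes, 18 had r over 0.9 with the mean of the 40, as did 89 of the 92 replication and mitosis genes.

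Some of the 40 genes share sequence or position with others. In GENCODE M21 the exons of 12 of them overlap another gene, 10 in antisense and 3 on the same strand, and strand use in the counting is not given in the sources used here. Tk1, Plk1 and Foxm1 are among the 12, and the antisense or overlapping share of their reads is uncertain. A group of 6 (Ccnb1, Cdc6, Mcm7, Mki67, Rrm2 and Uhrf1) has in all 10 pseudogenes of 95% identity or more over at least 200 bases, and a pseudogene held at most 1.15% of the joint reads.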

How the data were processed

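RNA of whole spleens from 5 DUSP6 KO and 5 WT mice was sequenced as paired-end reads. The authors used Hisat2 for alignment and featureCounts (1.5.0-p3 in the submitters' processing notes) for gene counts, and deposited FPKM values, computed from the count and the length of each gene, in 1 table of 54532 genes. The notes name a human build, but 98.3% of the genes have the coordinates of GENCODE M21 (GRCm38), which were used here. Taken times the gene length, every deposited value came within 0.001 of a whole number of reads, from which the read totals were recovered. The 20 pairs of libraries within groups differed beyond sampling noise (chi-square per gene of 14.7 to 169).

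Each column was matched to its sample by name. Values were taken as log2(FPKM + 0.1), a scale that understates changes of low genes, for the 21296 genes whose mean reached 0.1 FPKM, and DUSP6 KO was compared with WT over all of them with limma 3.58.1 (R 4.3.3, eBayes with trend, two-sided, Benjamini-Hochberg adjustment, threshold 0.05). The reads behind the values were also tested with limma voom. Single values and list means were compared with two-sided exact permutation tests, for which 5 against 5 allows p no lower than 0.0079, and correlations with 100000 permutations. Pseudogenes were found with blastn 2.17.0. Python 3.11.15, numpy 2.4.6, pandas 2.3.3, scipy 1.17.1 and matplotlib 3.10.9 were used, and the fit was tested on simulated data.

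The 40 genes, the other gene lists and the tests were chosen with earlier results of these data known. Values in every library are given for Mki67 and Mcm5, for any member that passed the test, for the 6 members with the lowest p, for the 3 with the highest and the 3 with the lowest mean, and for the 3 with the largest SD. In each other cell cycle list the 2 genes with the lowest p are named. Mcm6 was added after its values were seen. Alternatives were other pseudocounts, filters, scalings and variance models, leaving out each library, and the erythroid mean as a term. Leaving out WT 65 and WT 67, leaving out DUSP6 KO 73 and WT 77, and leaving out libraries in the fit with the erythroid term were added after the data were seen. P-values of limma weigh a group difference against the spread between mice within groups, and those of the permutation tests refer to reshuffled libraries.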

Additional observations from a re-analysis of the deposited data

Results flagged for a closer look

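The read total of WT 67 was 18422147, while the other WT libraries held 15611652 to 16348136 reads, so that its distance from the nearest library made up 0.738 of the whole range of the group. Of 102 groups of 5 values examined, this was the 1 that stood out by Dixon's test, and chance alone singles out about 1 in 20 such groups. WT 67 was also the library with the most RNA of the exocrine pancreas and the lowest level of 29 of the 40 cell cycle genes. The part of depth in these values was not tested.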

How the results depend on the processing

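No member was called by limma under any alternative. With pseudocounts of 1 and 0.01, other filters, no trend, a robust fit, array weights, quantile or median scaling, rescaled FPKM and limma voom, 38 to 39 of the 40 were above 0, with a median log2 difference of 0.18 to 0.22. Leaving out each library in turn, the median of the 40 genes ranged from -0.07 to 0.45 and that of the 92 other replication and mitosis genes from -0.06 to 0.40. Over the same fits the log2 difference ranged from -0.11 to 0.56 for Mki67, -0.23 to 0.44 for Cenpf, -0.0382 to 0.42 for Foxm1, -0.0893 to 0.47 for Tyms, -0.22 to 0.46 for Rrm2 and -0.12 to 0.30 for Pcna. Without WT 65 and WT 67 these 6 genes were at -0.16, -0.29, -0.13, -0.12, -0.19 and -0.0873. With the erythroid mean as a term Cenpf was at -0.0484, Rrm2 at -0.0516 and Pcna at -0.00856, and the number of genes called over the whole table went from 15 to 29. Leaving out each library in turn gave 10 to 34 such genes, with 34 without DUSP6 KO 21. In the fit with the erythroid term the members with an unadjusted p under 0.05 numbered 3 with all libraries and 1 to 7 when each library was left out, with 7 without DUSP6 KO 26 (10.3% of all genes in that fit), 1 without DUSP6 KO 21 (8.02%) and 5 without WT 77 (7.88%). The cause of these changes was not tested. No paired analysis was run, since the sources used here describe no pairs of KO and WT mice. The replicate number 73 occurs in both groups, but nothing marks these mice as a pair. A negative binomial test on recovered reads was planned and not run, since the deposited values are FPKM, and limma voom was run in its place. The spread between 5 mice a group limits the precision, and the 95% interval of Mki67 spans -0.94 to 1.41.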

Other observations

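Among the marker lists, all 7 megakaryocyte and platelet genes had a log2 difference (DUSP6 KO minus WT) below 0 (median -0.34). All 8 B cell genes were also below 0 (median -0.18), where 49.0% of all genes tested were above 0. In limma, 0 genes of either list had an adjusted p of 0.05 or less. The genes of a list share libraries and are not separate observations. The list means had a two-sided exact permutation p of 0.12 for megakaryocytes and platelets and 0.53 for B cells.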
